A study of Mus musculus with 26 samples.

Results

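DN1eP cells, a fraction of immature mouse thymocytes that the series calls DN1eP precursors, were compared with thymic natural killer T (NKT) cells of developmental stage 1. The comparison took 7 of the 26 RNA-seq libraries of the series, chosen by their labels and by their median expression level: DN1eP libraries 1 to 4 and stage 1 libraries NKT-1 3 to 5. All 7 came from C57BL/6 mice of 6 to 8 weeks, with no genetic change named. DN1eP cells were sorted as CD44+, CXCR3+, CD5+ and CD27+ among lineage-negative (Lin-) thymocytes that were CD25-, Ly108- and CD24low, and their surface Vα14Jα18 T cell receptor (TCR) is labelled negative. Stage 1 NKT cells were sorted as TCRβ+ cells that bound a CD1d dimer loaded with αGalCer and were CD44- and NK1.1-, and their surface Vα14Jα18 TCR is labelled positive. The design text calls the DN1eP cells ex vivo, although the culture protocol of other samples is attached to every label. The sources used here do not give which markers Lin covers. The labels do not say whether replicates came from separate animals or from pools, and the p-values therefore reflect the spread of these 7 libraries alone, which may be technical.

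NKT cells carry a nearly invariant TCR that recognises lipids presented by CD1d, and they are selected in the thymus at the stage of CD4+CD8+ thymocytes. The zinc finger factor PLZF (Zbtb16) directs their effector programme. After selection, stage 1 cells divide and can make IL-4, and the cells that reach stage 3 take on NK receptors such as NK1.1, cytotoxic granules and IFN-γ. NK cells and other innate lymphocytes use many of the same receptors and granule proteins without a rearranged TCR.

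Values are FPKM, which scale reads by gene length and by library total, and a level given for a gene is its FPKM summed per gene symbol. A difference is DN1eP minus stage 1 on the log2(FPKM + 1) scale, which understates the change of low genes. It is given with its SE and with a p-value from limma, adjusted by Benjamini and Hochberg over 10168 genes. A gene was called at an adjusted p under 0.05. Values of single libraries are in the order 1, 2, 3 and 4 for DN1eP and 3, 4 and 5 for stage 1. As these are bulk samples, fewer cells of a type and less RNA per cell cannot be told apart.

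The 4 DN1eP libraries were not alike. The 7 libraries had 9067 to 9956 genes at 1 FPKM or more, with medians of 8.08 to 9.80 FPKM over those genes. NKT-1 libraries 1 and 2, at 13.40 and 13.71, were left out. On the log2 scale the correlation was 0.929 to 0.936 among DN1eP libraries 2 to 4, and 0.802 to 0.844 between them and stage 1. Library 1 correlated with libraries 2 to 4 at 0.867 to 0.894 and with stage 1 at 0.883 to 0.909. On the first principal component, which held 57.8% of the variance, library 1 lay at -0.19, between libraries 2 to 4 at 52.99 to 67.85 and stage 1 at -63.03 to -57.04. The deposited 95% intervals had a half-width of 6.55% in library 1 and of 6.26% to 6.42% in stage 1 for genes of 20 to 100 FPKM, against 19.49% to 24.18% in DN1eP libraries 2 to 4. In that range of FPKM, 41.91% of the genes of library 1 and 42.01% to 42.62% of those of stage 1 had an FPKM outside its own interval, against 0.40% to 1.03% in DN1eP libraries 2 to 4. The FPKM of these 4 libraries may therefore be on a scale set after their intervals, which no source used here states. Precision and group cannot be told apart except through library 1, which is given apart where it differs. The part of precision or of such a scale in any result was not tested.

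**Figure D1:**
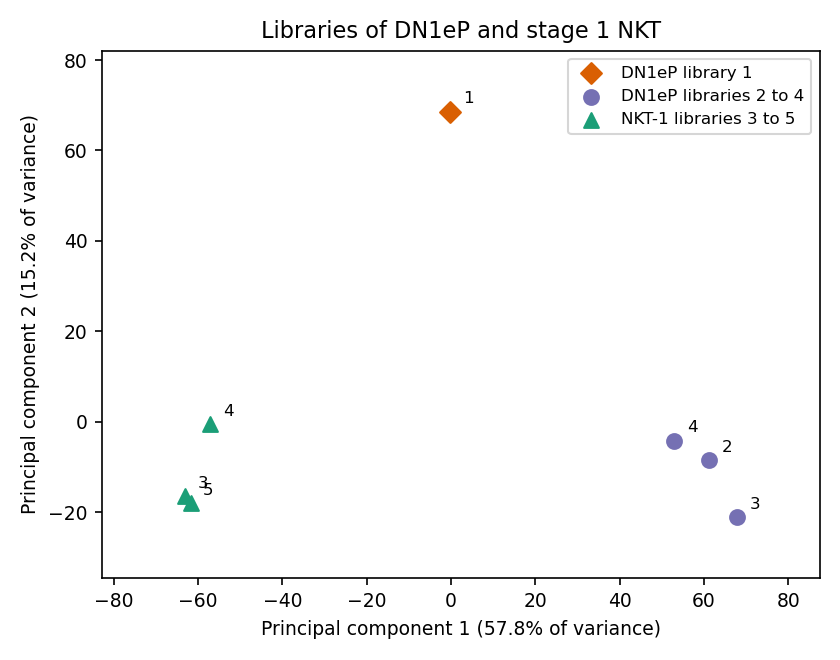
The 7 libraries on the first 2 principal components of log2(FPKM + 1) over the genes tested, with each axis labelled by its share of the variance. DN1eP library 1 lies near 0 on the first component, between DN1eP libraries 2 to 4 at 52.99 to 67.85 and NKT-1 libraries 3 to 5 at -63.03 to -57.04, and stands apart at 68.6 on the other.

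Of the 10168 genes tested, 1050 (10.3%) were higher and 1441 (14.2%) lower in DN1eP, 24.5% in all. The median difference over all tested genes was -0.08. The 7 libraries did not overlap between groups for 1399 genes higher in DN1eP (13.8%) and for 2058 lower (20.2%). The largest differences were mostly rises: at a log2 size of 4 or more, 47 called genes were higher and 6 lower. Scaling each library to its upper quartile shifted the median by 0.10 and gave 1199 genes higher and 1097 lower, so that 52.2% of calls were higher, against 42.2% as tested. Without DN1eP library 1 the counts were 1896 higher (18.9% of 10015) and 1958 lower (19.6%), and for library 1 alone against stage 1 they were 327 (3.22%) and 556 (5.47%). In the fit of library 1 alone the spread came from the stage 1 libraries only, and fewer libraries entered. Its counts of calls, here and below, thus say nothing of the spread in DN1eP and are not on a par with the others. Library 1 was also placed on a scale from 0 at the stage 1 mean to 1 at the mean of libraries 2 to 4. It had a median of 0.699 over genes called lower without it and of 0.248 over genes called higher without it. These genes were chosen by libraries 2 to 4, whose mean also sets the 1 of the scale. A left-out library would thus tend to fall below 1 through the choice alone, and the medians do not measure its position free of that. Library 1 stood at least 1 log2 unit outside libraries 2 to 4 for 1080 genes (10.6%), below them for 894 and above them for 186. Genes tested had at least 1 FPKM in 3 of the 7 libraries. Libraries 2 to 4 alone could meet this and library 1 alone could not, so the counts below and above are not on equal terms.

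Of the 8 gate genes, only Cd44 encodes a protein named in the gates of both groups. NK1.1 is named for stage 1 alone and the others for DN1eP alone, so these gates set no direction between groups. Cd44, Klrb1c, Slamf6 and Cxcr3 differed towards the side that the named gate selects, and Il2ra, Cd24a and Cd5 away from it. Since the sort chose cells by these proteins, they are not a finding, also where they count in the lists below. Only Cd44 checks the labels of both groups. Of 8 gate genes, 5 were higher and 2 lower in DN1eP, against 10.3% and 14.2% of all genes tested, and 3 higher without DN1eP library 2 or any 1 stage 1 library. Cd44, the adhesion receptor that stage 1 cells were sorted to lack, was at 94.7, 51.1, 40.5 and 39.7 FPKM in DN1eP and at 4.72, 3.69 and 2.22 in stage 1 (log2 difference 3.61 ± 0.34 SE, adjusted p = 7.82e-05). Klrb1c, which encodes NK1.1, was at 495, 216, 234 and 170.4 in DN1eP and at 4.46, 8.47 and 4.99 in stage 1 (log2 difference 5.25 ± 0.35 SE, adjusted p = 1.01e-05). The groups did not overlap for either gene, and library 1 was the highest DN1eP library for both. Slamf6, which encodes Ly108, was at 0.174 in library 1, 13.01, 12.7 and 7.11 in libraries 2 to 4 and 79.8, 81.1 and 42.2 in stage 1 (log2 difference -3.34 ± 0.89 SE, adjusted p = 0.0361). Cxcr3 was at 423 in library 1, 170.5, 123 and 140 in libraries 2 to 4 and 45.5, 81.4 and 79.1 in stage 1 (log2 difference 1.49 ± 0.41 SE, adjusted p = 0.0307). Library 1 was thus the most extreme of the 4 on these gates too. Il2ra, which encodes CD25, was above stage 1 in all 4 DN1eP libraries although these were sorted CD25-, at 14.4, 6.91, 10.1 and 8.14 against 0.245, 1.23 and 0.299 FPKM (log2 difference 2.78 ± 0.35 SE, adjusted p = 4.38e-04). Cd24a was at 0.936 in library 1, 12.4, 15.9 and 7.64 in libraries 2 to 4 and 0 to 0.586 in stage 1 (log2 difference 2.63 ± 0.66 SE, adjusted p = 0.0198). Cd5, an attenuator of TCR signals and part of the DN1eP gate, was lower in DN1eP at 12.3 to 23.4 against 62.5 to 74.3 (adjusted p = 4.94e-04), and Cd27 at 169.5 to 241 against 165 to 169 did not pass the test (adjusted p = 0.33).

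DN1eP cells carried RNA of the whole NK receptor list. All 28 tested genes for NK receptors and their adaptors were higher in DN1eP, with no overlap between groups for any of them, against 10.3% of all genes called higher and 13.8% without overlap. Their median log2 difference was 4.19, against -0.08 over all genes. Stage 1 cells were sorted as NK1.1-, so Klrb1c, which is in the list, is not independent of the sort. Other NK receptors are taken on along with NK1.1, so the gate may also have left out stage 1 cells that carry them. The part of the sort in the difference of the list was not tested. All 28 were also higher without library 1, and 18 were for library 1 alone. Promoters are shown for 2 genes that lay at or near 0 in stage 1 and were detected in every DN1eP library, Ncr1, which encodes the activating receptor NKp46, and Prf1, which encodes the pore protein perforin. The windows run from 250 bases before to 50 after the RefSeq start (GRCm38.p6), 5′ to 3′ in the direction of the gene. Capitals mark TGTGGT, the core of the Runt motif bound by Runx factors, and AGGTGT, a T-box motif bound by T-bet and Eomes, on either strand.
Ncr1 promoter: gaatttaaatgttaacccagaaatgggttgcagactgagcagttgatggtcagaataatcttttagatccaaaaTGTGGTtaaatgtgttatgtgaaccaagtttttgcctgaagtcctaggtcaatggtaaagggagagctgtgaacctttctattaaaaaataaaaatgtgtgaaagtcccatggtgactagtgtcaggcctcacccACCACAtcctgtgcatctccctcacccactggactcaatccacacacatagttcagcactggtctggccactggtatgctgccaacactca
Prf1 promoter: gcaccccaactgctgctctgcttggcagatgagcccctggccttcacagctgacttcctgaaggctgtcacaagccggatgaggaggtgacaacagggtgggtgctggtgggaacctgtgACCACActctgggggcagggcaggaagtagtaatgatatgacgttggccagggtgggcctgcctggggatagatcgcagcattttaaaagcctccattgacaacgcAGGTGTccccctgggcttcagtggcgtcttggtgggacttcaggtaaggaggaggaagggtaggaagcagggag
The Ncr1 window, at chr7:4337465-4337764 on the + strand, holds 2 TGTGGT matches and 0 AGGTGT matches, and is 1 of 2 windows of the gene. The Prf1 window, at chr10:61297586-61297885 on the + strand, holds 1 of each, and no matches overlap. A match to TGTGGT was in 46.7% of 30 windows of the 22 NK receptor genes searched. It was in 57.9% of 19 windows of 16 granule genes, against 16.8% of all 32851 promoter windows searched. AGGTGT was in 0% and 31.6%, against 13.7%. These are counts of letters in a window, and no binding was measured.

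Ncr1 was listed at 0 in all 3 stage 1 libraries and at 42.1, 60.00, 45.8 and 49.3 FPKM in DN1eP (adjusted p = 3.54e-07), with library 1 the lowest of the 4. Tyrobp, the gene of the adaptor DAP12 that links activating NK receptors to kinases, was at 115, 209, 192 and 200 in DN1eP and at 9.16, 1.45 and 0 in stage 1 (log2 difference 5.91 ± 0.71 SE, adjusted p = 0.00131). Fcer1g, the gene of another such adaptor and shown after its values were seen, was at 483, 485, 429 and 442 against 24.2, 18.2 and 2.18 (log2 difference 5.32 ± 0.68 SE, adjusted p = 0.00222). Adaptor levels thus did not overlap between groups, and DN1eP library 1 lay below the other DN1eP libraries for Tyrobp only. Klrc1, which encodes the inhibitory receptor NKG2A, was at 433, 312, 314 and 294 in DN1eP and at 2.499, 19.9 and 0.443 in stage 1 (log2 difference 6.15 ± 0.86 SE, adjusted p = 0.0042). Klra5, of the Ly49 family of MHC class I receptors, was at 344, 184, 179.5 and 161 against 1.199, 14.8 and 0.0996 (log2 difference 5.95 ± 0.89 SE, adjusted p = 0.00516). Klre1, which encodes another lectin-like NK receptor, was at 282, 117, 123 and 115 against 1.87, 5.39 and 0.133 (log2 difference 5.75 ± 0.56 SE, adjusted p = 2.61e-04). For each of these 3 receptors NKT-1 library 4 was the highest stage 1 library, and library 1 the highest of DN1eP. The same library held Klrd1, the partner chain of NKG2A, at 86.5 FPKM against 16.96 and 4.21 in NKT-1 libraries 3 and 5 (DN1eP 381 to 876, adjusted p = 0.0234). Klrk1, which encodes NKG2D, was there at 40.99 against 3.25 and 1.41 (DN1eP 148 to 383, adjusted p = 0.0241), both genes being picked after their values were seen. Leaving out any 1 of the 7 libraries left 24 to 28 of the 28 genes higher. Genes of the Ly49 and NKG2 families have near-identical copies, so the split of reads among them is uncertain.

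**Figure D2:**
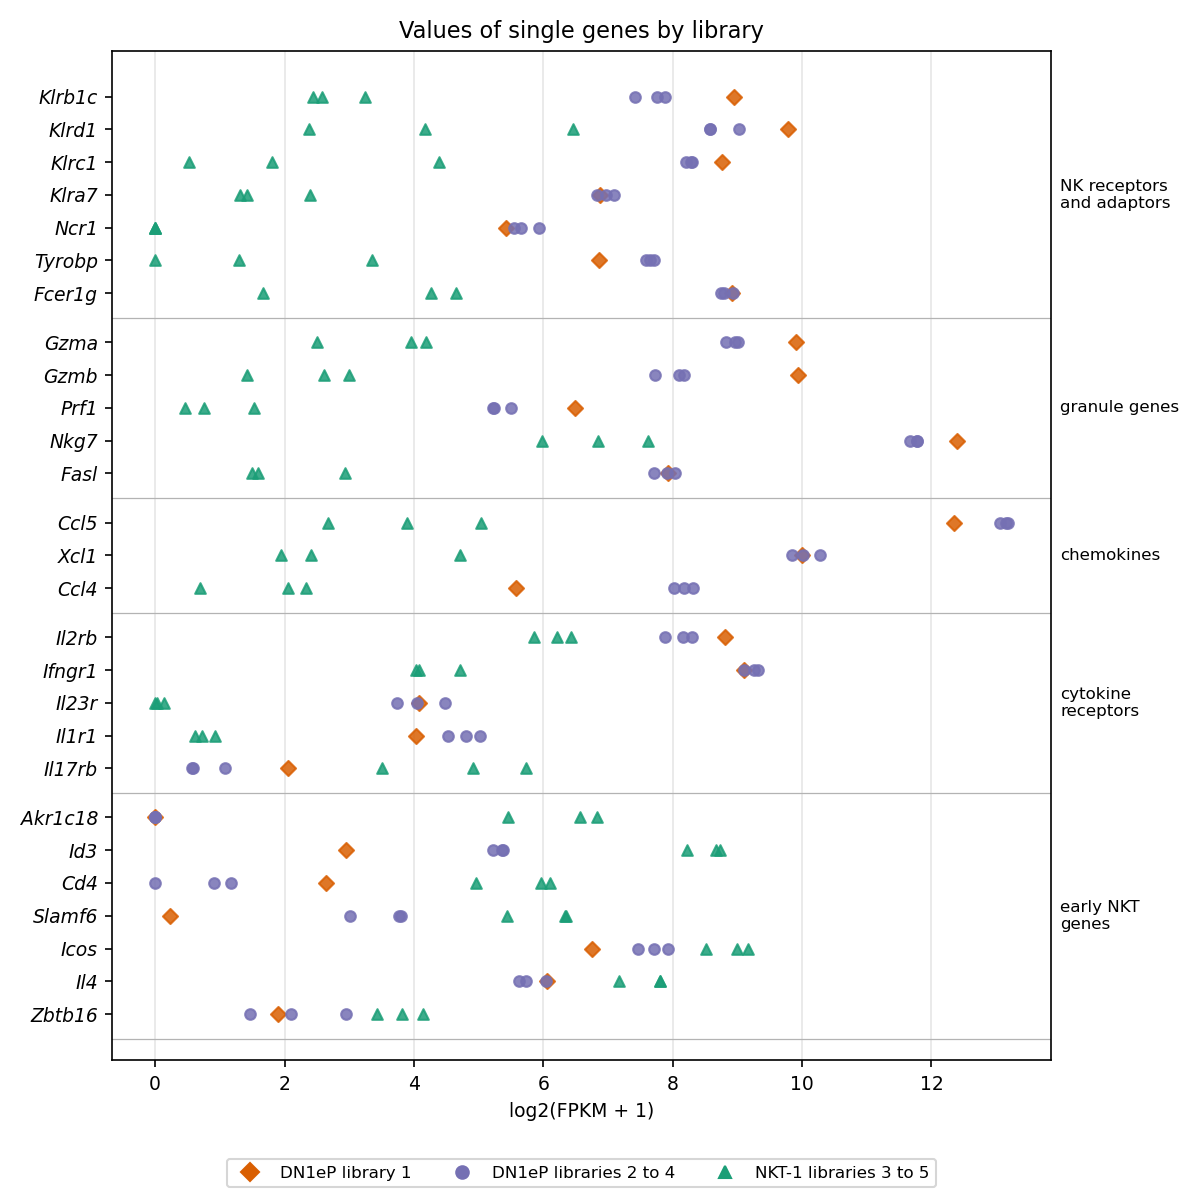
Values of single genes in each library as log2(FPKM + 1), with genes in rows by role, diamonds for DN1eP library 1, circles for libraries 2 to 4 and triangles for NKT-1 libraries 3 to 5. The NK receptor, granule and chemokine genes lie to the right in all 4 DN1eP libraries, the early NKT genes lie to the left, and Ncr1 is listed at 0 in stage 1 and Akr1c18 at 0 in DN1eP.

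Cytotoxic granule genes rose with the receptors. Of 17 tested granule genes, 11 were higher and 0 lower, against 10.3% and 14.2% of all genes, with a median of 1.56, and 11 were higher without library 1 and 10 for library 1 alone. Granzyme B, a protease that starts death of the target cell, was at 978, 273, 209.9 and 287 FPKM in DN1eP and at 6.96, 5.12 and 1.68 in stage 1 (log2 difference 6.14 ± 0.58 SE, adjusted p = 3.91e-04). Granzyme A (Gzma) was at 954, 454, 499.6 and 514 against 17.2, 4.67 and 14.4 (log2 difference 5.63 ± 0.41 SE, adjusted p = 5.59e-05). Library 1 was the highest DN1eP library for both granzymes, Gzmb being at 978 there against 209.9 to 287 in libraries 2 to 4. Nkg7, the gene of a granule membrane protein of killer cells, was at 5382, 3521, 3501 and 3243 against 114, 196 and 61.9 (log2 difference 5.09 ± 0.35 SE, adjusted p = 4.52e-05). Fas ligand (Fasl) was at 242, 239, 260.3 and 208 against 1.999, 6.68 and 1.83 (log2 difference 5.88 ± 0.33 SE, adjusted p = 1.71e-06). Perforin (Prf1), shown after its values were seen, was at 88.5, 44.3, 36.6 and 36.4 against 0.691, 1.88 and 0.383 (log2 difference 4.69 ± 0.38 SE, adjusted p = 2.95e-05). All these groups were wide apart, and for Fasl library 1 lay among the other DN1eP libraries. The other 6 tested genes did not pass the test and are named for that, after their values were seen. Srgn, the proteoglycan core of the granule, was at 1097 to 1208 in DN1eP and 908 to 1412 in stage 1 (adjusted p = 0.708). Lamp1 (adjusted p = 0.358), Rab27a (0.722), Unc13d (0.813), Ctsc (0.149) and Cst7 (0.434), which act in lysosomes or in granule release and processing, were the other 5.

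Among chemokine ligands, 5 of 10 tested genes were higher and 1 lower, against 10.3% and 14.2% of all genes, with a median of 2.93. Ccl5, a chemoattractant stored by killer cells, had the largest rise on the log2 scale of all genes called. It was at 5221, 9091, 9317 and 8562 FPKM in DN1eP and at 13.9, 31.7 and 5.34 in stage 1 (log2 difference 9.07 ± 0.53 SE, adjusted p = 7.82e-05). Xcl1, which attracts cross-presenting dendritic cells, was at 1020, 1246, 915 and 1036 against 4.29, 25.3 and 2.85 (log2 difference 7.01 ± 0.62 SE, adjusted p = 4.94e-04). Both groups were far apart, with library 1 lowest of DN1eP for Ccl5 and among the others for Xcl1. Ccl4, an inflammatory chemokine, was at 46.7 in library 1, 317, 289 and 258 in libraries 2 to 4 and 4.05, 3.14 and 0.621 in stage 1 (log2 difference 5.83 ± 0.75 SE, adjusted p = 0.00208). Ccl3, a close relative of it, was at 3.74 in library 1, 80.8, 117 and 58.7 in libraries 2 to 4 and 3.15, 0.5703 and 0 in stage 1 (log2 difference 4.44 ± 1.22 SE, adjusted p = 0.0454). Ccl9 followed the same order at 1.42, 15.9 to 23.4 and 0.203 to 0.864 (adjusted p = 0.018). For Ccl3, Ccl4 and Ccl9 library 1 thus lay above stage 1 and far below libraries 2 to 4. The gene called lower was Ccl17, at 1.1 in library 1 and listed at 0 in libraries 2 to 4 against 0.609 to 3.67 in stage 1 (adjusted p = 0.049), with overlapping groups. Ccl9 and Ccl17 were picked after their values were seen. Without DN1eP library 1 the list had 8 genes higher, for library 1 alone 3, and without DN1eP library 3, NKT-1 library 3 or NKT-1 library 4 it had 3.

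Of 30 tested regulators of the NKT lineage and related lymphocytes, 6 were higher and 5 lower in DN1eP, with a median of -0.28 (0.02 without library 1). Over all genes 10.3% were higher and 14.2% lower, so the share that fell is near the background. Tbx21, which encodes T-bet, the factor of IFN-γ producing lymphocytes, was at 8.15, 6.98, 7.01 and 6.12 FPKM in DN1eP and at 2.199, 2.99 and 1.89 in stage 1 (log2 difference 1.27 ± 0.28 SE, adjusted p = 0.00855). Eomes, a related factor of NK and memory T cells, was at 1.21 in library 1, 5.199, 4.78 and 3.63 in libraries 2 to 4 and 0.0168, 0.0875 and 0.0879 in stage 1 (log2 difference 2.04 ± 0.39 SE, adjusted p = 0.00414). Runx3, a factor of cytotoxic lymphocytes, was at 21.7, 19.9, 28.7 and 21.3 against 6.62, 6.89 and 8.64 (log2 difference 1.51 ± 0.24 SE, adjusted p = 0.00176). None of these overlapped between groups, and Eomes was low in library 1. Nfil3, which NK cell development needs, was at 2.48, 3.56, 5.12 and 8.899 against 0.344, 0.214 and 0.185 (log2 difference 2.16 ± 0.38 SE, adjusted p = 0.00261). Ets1 was at 596, 549, 714 and 581 against 404, 364 and 479 (log2 difference 0.55 ± 0.16 SE, adjusted p = 0.0323). The rise of Ets1 was thus the smallest of those named. Of the 5 regulators that fell, Zbtb16, which encodes PLZF, was at 2.73, 6.77, 1.75 and 3.29 in DN1eP and at 13.1, 16.6 and 9.77 in stage 1 (log2 difference -1.69 ± 0.37 SE, adjusted p = 0.00894). Egr2, induced by TCR signals and an activator of Zbtb16, was at 1.62, 2.97, 4.97 and 4.65 against 10.3, 7.29 and 11.7 (log2 difference -1.29 ± 0.35 SE, adjusted p = 0.0233). Both were low rather than absent in DN1eP, with no overlap between groups. Id3, an inhibitor of E proteins induced by the TCR, was at 6.698 in library 1, 36.5, 40.3 and 40.4 in libraries 2 to 4 and 405, 296 and 424 in stage 1 (log2 difference -3.81 ± 0.60 SE, adjusted p = 0.00427). Lef1 was at 25.6, 39.6, 35.7 and 40.3 against 66.7, 87.8 and 119 (log2 difference -1.33 ± 0.25 SE, adjusted p = 0.00401) and Lmo4 at 12.3 to 22.6 against 52.3 to 144 (adjusted p = 6.77e-04).

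The other regulators did not pass the test, and several split DN1eP library 1 from the rest. Tcf7, which encodes the T cell factor TCF-1, was at 73.8 FPKM in library 1, 276, 309 and 244 in libraries 2 to 4 and 217, 211 and 160.3 in stage 1. Myb was at 1.65 in library 1, 22.4, 25.9 and 18.7 in libraries 2 to 4 and 18.6, 15.1 and 11.6 in stage 1. Id2, an E protein inhibitor of innate lymphocytes, was at 4363 in library 1, 1434, 1282 and 1411 in libraries 2 to 4 and 1455, 2147 and 789 in stage 1. Tox was at 38.7, 89.01 to 108 and 96.01 to 102. Library 1 was thus below stage 1 for Tcf7, Myb and Tox and above it for Id2. Libraries 2 to 4 overlapped stage 1 for Id2 and Tox and lay above it for Tcf7. For Myb the lowest of libraries 2 to 4, at 18.67, barely exceeded the highest of stage 1, at 18.61. That difference did not pass the test without library 1 (0.54, adjusted p = 0.1145). Against the stage 1 mean, the log2 difference of library 1 alone was -1.39 for Tcf7, -2.58 for Myb, -1.32 for Tox and 1.69 for Id2. Gata3, at 42.4 to 60.2 against 74.8 to 91.4, missed the threshold (adjusted p = 0.0546). Runx1 (2.04 to 3.102 against 3.05 to 5.55), Bcl11b (3.76 to 5.85 against 5.44 to 11.5) and Maf (29.2 to 41.1 against 41.4 to 58.4) also did not pass. Without library 1 the counts of the list were 11 higher and 8 lower, and for library 1 alone 3 and 8.

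Among cytokine receptors, 16 of 28 tested genes were higher in DN1eP and 1 lower, with a median of 1.23, against 10.3% and 14.2% of all genes. Ifngr1, the ligand-binding chain of the IFN-γ receptor, was at 549, 549.9, 613 and 634 FPKM in DN1eP and at 15.9, 15.3 and 25.3 in stage 1 (log2 difference 4.92 ± 0.20 SE, adjusted p = 2.19e-07). Its partner Ifngr2 behaved otherwise, at 0.966 in library 1, 24.4, 23.04 and 24.5 in libraries 2 to 4 and 7.18, 8.44 and 2.302 in stage 1 (adjusted p = 0.474). Ifngr1 thus did not overlap between groups, whereas library 1 fell below stage 1 for Ifngr2. Il12rb2, the signalling chain of the IL-12 receptor, was at 41.9, 34.8, 26.01 and 21.5 against 0.725, 0.992 and 2.46 (log2 difference 3.77 ± 0.34 SE, adjusted p = 5.59e-05). Il2rb, the chain shared by the IL-2 and IL-15 receptors, was at 449, 235, 284 and 312 against 72.8, 85.5 and 57.1 (log2 difference 2.12 ± 0.24 SE, adjusted p = 2.15e-04). Il18rap was at 39.7 to 61.1 against 4.23 to 12.3 (adjusted p = 2.85e-04), Il4ra at 9.38 to 29.9 against 0.329 to 1.69 (4.32e-04) and Il10ra at 6.12 to 18.8 against 0.187 to 0.842 (2.97e-04). All 5 had no overlap between groups. The common chain Il2rg, at 1457 to 2363 against 841 to 1464, did not pass the test (adjusted p = 0.0774). The receptor gene that fell was Il17rb, which binds IL-25 and marks IL-4 producing NKT cells, at 3.17, 0.4901, 0.493 and 1.11 against 29.01, 52.4 and 10.4 (log2 difference -3.65 ± 0.54 SE, adjusted p = 0.00114). Ifngr2, Il2rb, Il18rap, Il4ra, Il10ra, Il2rg and Il17rb were picked after their values were seen. Without library 1 the list had 19 higher and 1 lower, and for library 1 alone 11 and 0.

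Genes known to respond to IL-2 and STAT5 rose in 12 of 25 cases and fell in 0, with a median of 0.85. Over all genes 10.3% were higher and 14.2% lower. Of the 12, Il2ra, Il2rb, Gzmb, Tnfrsf18, Cish, Socs3, Bcl2 and Mcl1 also stand in other lists. Cish, a feedback inhibitor of the receptor, was at 31.1, 29.8, 49.1 and 31.7 FPKM in DN1eP and at 1.404, 7.78 and 3.52 in stage 1 (log2 difference 2.96 ± 0.40 SE, adjusted p = 6.06e-04). Socs2, another, was at 8.099, 9.73, 7.83 and 9.61 against 0.684, 0.715 and 0.4796 (log2 difference 2.59 ± 0.28 SE, adjusted p = 1.65e-04). The survival gene Bcl2 was at 26.96, 29.6, 25.4 and 25.3 against 3.16, 4.79 and 3.92 (log2 difference 2.50 ± 0.24 SE, adjusted p = 9.10e-05). The 4 DN1eP libraries were close together for Socs2 and Bcl2, and library 3 was the highest for Cish. Stat5a was at 4.005 in library 1, 11.9 to 17.2 in libraries 2 to 4 and 4.66 to 5.58 in stage 1 (adjusted p = 0.144), and Stat5b at 1.91, 9.96 to 14.1 and 7.34 to 8.89 (0.965), both read after the values were seen. Without library 1 the counts were 14 and 2, and for library 1 alone 7 and 2.

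Effector cytokine genes moved both ways, with 4 of 18 higher and 4 lower, against 10.3% and 14.2% of all genes. Ifng was at 136, 78.95, 72.1 and 76.3 FPKM in DN1eP and at 1.32, 15.5 and 8.38 in stage 1 (log2 difference 3.64 ± 0.60 SE, adjusted p = 0.00384). Csf2, which encodes GM-CSF, was at 10.2, 6.59, 8.83 and 3.096 against 0, 0.403 and 0.399 (log2 difference 2.61 ± 0.39 SE, adjusted p = 0.00101). Il22 was at 3.97, 3.09, 8.29 and 5.23 against 0.349, 1.41 and 0.481 (log2 difference 1.80 ± 0.37 SE, adjusted p = 0.00635). For these 3 genes the groups did not overlap, and Ifng was highest in library 1. Il16 was the other gene that rose, at 96.4 to 110.3 against 48.7 to 57.2 (adjusted p = 0.00383). Il4, the cytokine of early NKT cells, was at 65.3, 48.1, 64.6 and 52.2 in DN1eP and at 223, 223 and 143 in stage 1 (log2 difference -1.74 ± 0.22 SE, adjusted p = 4.32e-04). Il13 was at 1.82 in DN1eP library 2 and listed at 0 in the other 3, against 12.4, 9.29 and 4.38 in stage 1 (log2 difference -2.81 ± 0.46 SE, adjusted p = 0.00191). Il4 thus stayed well above 0 in DN1eP, while Il13 was hardly seen there. Il21 was listed at 0 in all 4 DN1eP libraries and was at 3.45, 3.08 and 2.32 in stage 1 (adjusted p = 9.62e-04). Csf1 was the other gene that fell, at 0.884 to 0.998 against 1.64 to 6.25 (adjusted p = 0.0269). Tnf, at 5.15 to 6.61 against 5.03 to 13.3, did not pass the test (adjusted p = 0.59). Without DN1eP library 1 the list had 7 genes higher, and without any 1 of the stage 1 libraries 2 genes lower. Il16, Il4, Il21, Csf1 and Tnf were picked after their values were seen.

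The genes of IL-17 producing cells rose in part. Of 20 tested genes of this kind (the NKT17 list), 13 were higher and 1 lower, with a median of 1.82. Over all genes 10.3% were higher and 14.2% lower. Il23r, the receptor of IL-23 that maintains IL-17 producers, was at 15.97, 15.5, 21.2 and 12.4 FPKM in DN1eP and at 0, 0.104 and 0.0207 in stage 1 (log2 difference 4.03 ± 0.29 SE, adjusted p = 1.36e-05). Il1r1, the IL-1 receptor, was at 15.4, 22.1, 31.5 and 27.1 against 0.898, 0.526 and 0.646 (log2 difference 3.85 ± 0.31 SE, adjusted p = 2.95e-05). Serpinb1a was at 173, 49.9, 39.5 and 51.2 against 0.884, 0.914 and 0.312 (log2 difference 5.29 ± 0.46 SE, adjusted p = 5.97e-05). These 3 were near 0 in stage 1 and present in every DN1eP library, with Serpinb1a highest in library 1. Ccr6, a homing receptor of IL-17 producers, was at 2.82 in library 1, 24.6, 9.01 and 22.1 in libraries 2 to 4 and 0, 0.0469 and 0.0464 in stage 1 (log2 difference 3.57 ± 0.59 SE, adjusted p = 0.00228). The cytokine genes themselves were split. Il17f was at 2.16 in library 1, 199.7, 146 and 158 in libraries 2 to 4 and 1.17, 1.33 and 0 in stage 1 (log2 difference 5.18 ± 1.66 SE, adjusted p = 0.0766). Il17a was at 0.252, 15.1, 4.73 and 15.4 and 0, 1.14 and 0.293 (log2 difference 2.23 ± 0.86 SE, adjusted p = 0.0918). Library 1 was close to stage 1 for both and libraries 2 to 4 were above it, so that neither passed the test over all 4. Without library 1 the log2 difference was 6.61 for Il17f (adjusted p = 4.48e-07) and 3.03 for Il17a (4.24e-04). Nrp1 was the gene that fell, at 0.689 to 2.23 against 8.09 to 13.1 (adjusted p = 8.26e-04). Il17f, Il17a and Nrp1 were picked after their values were seen. The list had 15 higher and 2 lower without library 1, and 10 and 2 for library 1 alone. Several of these genes are also expressed by innate lymphocytes of group 3 and by γδ T cells.

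Genes of early and IL-4 producing NKT cells were mostly lower in DN1eP: 15 of 23 fell and 3 rose, with a median of -1.45. Over all genes 14.2% were lower and 10.3% higher, so the share that rose is near the background. Akr1c18, which encodes a steroid dehydrogenase, was listed at 0 in all 4 DN1eP libraries and was at 112, 94.1 and 42.7 FPKM in stage 1 (adjusted p = 1.71e-06). Cd4, the co-receptor that many early NKT cells carry, was at 5.27, 0, 1.27 and 0.888 in DN1eP and at 67.6, 61.3 and 30.1 in stage 1 (log2 difference -4.49 ± 0.56 SE, adjusted p = 5.74e-04). Icos, a co-stimulatory receptor, was at 107, 208, 242 and 176 against 573, 508 and 366 (log2 difference -1.43 ± 0.27 SE, adjusted p = 0.00434). For all 3 the groups did not overlap, and Cd4 was highest of DN1eP in library 1. Plac8 was at 201 to 414 against 478 to 1182 (adjusted p = 0.0117), Folr4 at 55.5 to 92.9 against 208 to 335 (5.74e-04) and Cd200 at 0 to 3.82 against 8.46 to 21.6 (0.00562). Ccr4 was at 0.814 in library 1, 15.4, 17.9 and 18.8 in libraries 2 to 4 and 38.2, 41.9 and 47.7 in stage 1 (adjusted p = 0.117). The DN1eP libraries were thus all below stage 1 for Ccr4, but spread too widely to pass the test with library 1 in the fit (adjusted p = 9.09e-04 without it). The 3 genes that rose were Ly6c2, Ramp3 and Slamf1. Ly6c2, a surface marker of memory-like and myeloid cells with near-identical copies in the genome, was at 1250, 585, 518 and 617 against 32.4, 42.2 and 102 (log2 difference 3.72 ± 0.42 SE, adjusted p = 5.91e-04). Ramp3, an accessory chain of receptors for the calcitonin family, was at 7.04 in library 1, 293, 259 and 260.4 in libraries 2 to 4 and 0, 3.05 and 1.21 in stage 1 (log2 difference 5.76 ± 1.51 SE, adjusted p = 0.0459). Slamf1 was at 3.51 to 11.7 against 2.11 to 2.19 (adjusted p = 0.0245). Icos, Plac8, Folr4, Ccr4 and Slamf1 were picked after their values were seen. Leaving out NKT-1 library 3 left 9 of 20 tested genes lower, and leaving out DN1eP library 2 or any 1 stage 1 library left 1 higher.

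RNA of the CD3 chains was abundant in both groups, although DN1eP cells are labelled negative for the surface Vα14Jα18 TCR. Of 28 tested genes of the complex and its signalling, 6 were higher and 4 lower, with a median of 0.068. The share lower is near the 14.2% of all genes, beside 10.3% of all genes higher. Cd3e was at 1538, 1336, 1186 and 1117 FPKM in DN1eP and at 877, 1129 and 919 in stage 1 (log2 difference 0.41 ± 0.16 SE, adjusted p = 0.0895). Cd3g was at 2823, 2097, 2050 and 1736 against 1923, 2094 and 1351 (log2 difference 0.28 ± 0.20 SE, adjusted p = 0.321). Lck, the first kinase of the TCR signal, was at 815, 703, 732 and 657 against 709, 744 and 738 (log2 difference -0.011 ± 0.14 SE, adjusted p = 0.966). Levels were high in both groups and overlapped for all 3, and the differences did not pass the test. Cd3d, Cd247 and Lat had adjusted p-values of 0.744, 0.743 and 0.425, and Zap70 of 0.0591, and these, Cd3e, Cd3g and Lck were picked after their values were seen. Among the genes that rose were Txk, Tec, Rasgrp1, Cd8a and Malt1, and the 4 that fell were Cd4, Cd6, Icos and Sh2d1a. Txk, a kinase of the Tec family, was at 128, 182, 217 and 164 in DN1eP and at 39.96, 49.8 and 46.3 in stage 1 (log2 difference 1.89 ± 0.21 SE, adjusted p = 2.15e-04). Tec, of the same family, was at 13.7 to 27.8 against 5.38 to 7.73 (adjusted p = 0.00435). Rasgrp1, which passes the TCR signal to Ras, was at 12.2 to 21.5 against 2.97 to 7.31 (0.0114). The groups did not overlap for these 3, and library 1 was the lowest DN1eP library for Txk and Tec. Sh2d1a, which encodes the SLAM adaptor SAP that NKT cells need, fell, at 136, 195, 144 and 158 against 364, 340 and 334 (log2 difference -1.14 ± 0.17 SE, adjusted p = 0.0012), and was read after its values were seen.

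Of 25 tested inhibitory receptors and attenuators, 9 were higher and 2 lower in DN1eP, and 1 lower without NKT-1 library 3 or 4. Over all genes 10.3% were higher and 14.2% lower, so the share that fell is not above the background. Tigit, an inhibitory receptor of NK and T cells, was at 19.9, 32.4, 52.01 and 56.1 FPKM in DN1eP and at 0.653, 2.84 and 0.828 in stage 1 (log2 difference 4.07 ± 0.42 SE, adjusted p = 1.33e-04). Rgs1, which dampens chemokine receptor signals, was at 904, 1093, 973 and 818 against 14.6, 67.6 and 66.3 (log2 difference 4.50 ± 0.49 SE, adjusted p = 7.45e-04). Ptpn22, a phosphatase acting on Lck and chosen after its values were seen, was at 142, 173, 186 and 185 against 24.2, 39.7 and 23.8 (log2 difference 2.54 ± 0.22 SE, adjusted p = 5.19e-05). All 4 DN1eP libraries were above all stage 1 libraries for these genes. Pdcd1, which encodes PD-1, was at 85.2 in library 1, 372, 367 and 367 in libraries 2 to 4 and 347, 278 and 279.7 in stage 1 (adjusted p = 0.783). Ctla4 was at 0.536 in library 1, 21.6, 20.1 and 9.21 in libraries 2 to 4 and 0.219, 0.719 and 0.082 in stage 1 (log2 difference 2.82 ± 0.88 SE, adjusted p = 0.0499). For PD-1, library 1 lay below all other libraries of both groups, and for Ctla4 it lay within the stage 1 range. In the TNF receptor family 3 of 12 tested genes were higher and 0 lower, against 10.3% and 14.2% of all genes, and without library 1 4 were higher and 3 lower. Tnfrsf18, which encodes GITR, was at 329, 350.2, 369 and 343 against 87.7, 91.3 and 57.8 (log2 difference 2.15 ± 0.19 SE, adjusted p = 5.59e-05). Cd40lg, the ligand of CD40, was at 148 in library 1, 37.4, 31.5 and 45.1 in libraries 2 to 4 and 122, 128 and 115 in stage 1 (adjusted p = 0.0965). Library 1 was thus above stage 1 for Cd40lg, and libraries 2 to 4 were below it (-1.67 without library 1, adjusted p = 6.89e-05). Pdcd1, Ctla4 and Cd40lg were picked after their values were seen.

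Chemokine receptor and trafficking genes rose in part and split the DN1eP libraries. Of 27 tested, 15 were higher and 1 lower, against 10.3% and 14.2% of all genes, with a median of 1.19. Library 1 was at least 1 log2 unit outside libraries 2 to 4 for 10 of the 27, against 10.6% of all genes tested. It was below them for 8 and above them for 2, against 8.79% and 1.83%. The filter on low values lets genes low only in library 1 pass, but not genes high only in it. Gpr183, a receptor for oxysterols that places lymphocytes in tissue, was at 74.5, 72.8, 77.8 and 84.4 FPKM in DN1eP and at 6.505, 6.75 and 21.4 in stage 1 (log2 difference 2.84 ± 0.35 SE, adjusted p = 4.29e-04). Cd69, which retains cells in tissue, was at 176, 370.2, 389 and 329.9 against 16.5, 44.6 and 30.9 (log2 difference 3.37 ± 0.36 SE, adjusted p = 2.58e-04). For both genes the groups did not overlap. The following genes were picked after their values were seen. Ccr9, a receptor of thymocytes and gut-homing cells, was at 1.93 in library 1, 136, 107 and 104 in libraries 2 to 4 and 109.9, 130.1 and 82.8 in stage 1 (adjusted p = 0.611). Ccr7, which guides thymocytes to the medulla, was at 4.76 in library 1, 136, 152 and 140.3 in libraries 2 to 4 and 89.8, 83.4 and 74.3 in stage 1 (adjusted p = 0.863). For Ccr9 and Ccr7 library 1 lay far below both other sets, and libraries 2 to 4 were above stage 1 for Ccr7 without it (0.78, adjusted p = 0.00279). S1pr1, the exit receptor for sphingosine 1-phosphate, was at 17.96 in library 1, 58.95, 51.8 and 59.05 in libraries 2 to 4 and 18.9, 22.03 and 21.6 in stage 1 (1.40 without library 1, adjusted p = 2.73e-04). Cxcr6, a receptor of liver-homing lymphocytes, went the other way, at 2329 in library 1, 841, 829 and 655 in libraries 2 to 4 and 462, 519 and 274 in stage 1 (adjusted p = 0.0605). Library 1 was thus low in Ccr9, Ccr7 and S1pr1 and high in Cxcr6 next to libraries 2 to 4. The list had 18 higher and 2 lower without library 1, and 9 and 4 for library 1 alone, and without NKT-1 library 5 it had 9 higher.

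**Figure D3:**
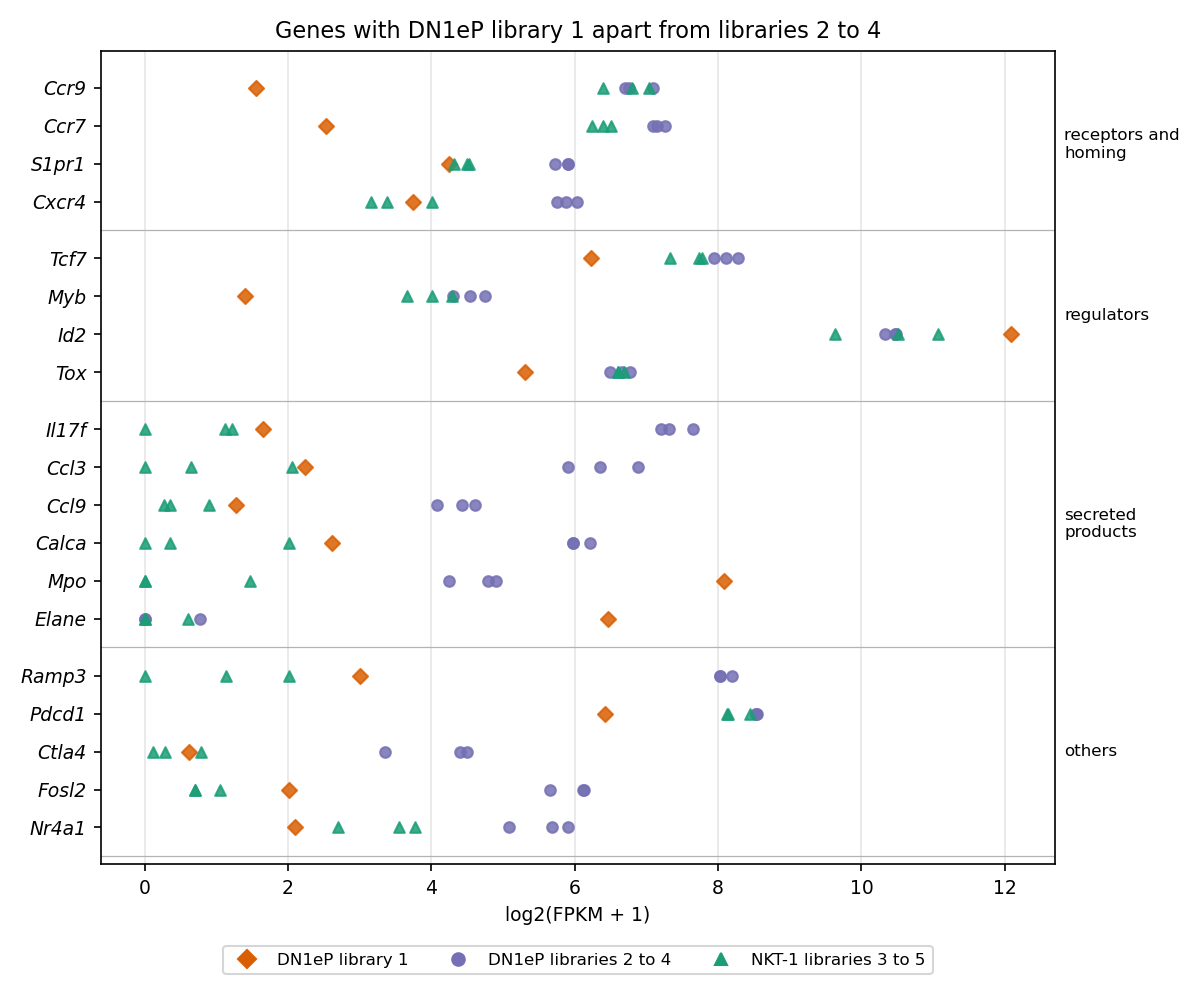
Values of genes for which DN1eP library 1 stood apart from libraries 2 to 4, as log2(FPKM + 1), with diamonds for library 1, circles for libraries 2 to 4 and triangles for NKT-1 libraries 3 to 5. Genes were picked for this split after their values were seen. Library 1 lies to the left of libraries 2 to 4 for Ccr9, Ccr7, Tcf7 and Il17f and to the right for Id2, Mpo and Elane.

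Genes of proliferation fell in DN1eP, and of all lists the cell cycle list had the lowest median. Of 34 cell cycle genes, 32 were lower and 0 higher, with a median of -2.65, against 14.2% of all genes lower. Of 30 DNA replication genes, 26 were lower and 0 higher, with a median of -2.03. Library 1 alone gave 32 and 26 genes lower, and the fit without it 32 and 25. Promoters are shown for Ccnb1 and Cdk1, whose products, cyclin B1 and its kinase, together drive entry into mitosis. Capitals mark CCAAT, the box bound by NF-Y, and TTTGAA, the cell cycle homology region bound by the DREAM and MuvB complexes, on either strand.
Ccnb1 promoter: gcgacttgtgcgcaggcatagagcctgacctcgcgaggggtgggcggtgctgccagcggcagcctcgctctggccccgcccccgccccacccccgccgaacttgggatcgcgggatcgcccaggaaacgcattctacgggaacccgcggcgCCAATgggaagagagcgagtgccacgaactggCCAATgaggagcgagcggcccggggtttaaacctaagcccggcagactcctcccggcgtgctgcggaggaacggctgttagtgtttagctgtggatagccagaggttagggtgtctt
Cdk1 promoter: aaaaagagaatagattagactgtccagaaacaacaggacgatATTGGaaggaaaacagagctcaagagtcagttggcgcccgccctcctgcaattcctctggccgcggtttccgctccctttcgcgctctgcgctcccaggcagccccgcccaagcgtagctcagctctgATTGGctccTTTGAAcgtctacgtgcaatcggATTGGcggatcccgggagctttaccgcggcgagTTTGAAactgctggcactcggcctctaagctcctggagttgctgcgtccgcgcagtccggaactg
The Ccnb1 window, at chr13:100786437-100786736 on the - strand, holds 2 CCAAT matches and 0 TTTGAA matches. The Cdk1 window, at chr10:69352863-69353162 on the - strand, holds 3 and 2. CCAAT was in 78.6% of 28 windows of the 27 cell cycle genes searched. It was in 53.3% of 30 windows of 25 replication genes, against 37.4% of all 32851 windows searched. TTTGAA was in 64.3% and 10.0%, against 17.9%. Both lists fell, so the share of TTTGAA differed between lists that moved alike, and no binding was measured.

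Ccnb1 was at 4.63, 4.31, 4.76 and 2.92 FPKM in DN1eP and at 112, 73.3 and 76.5 in stage 1 (log2 difference -4.09 ± 0.26 SE, adjusted p = 5.81e-06). Cdk1 was at 2.11, 3.77, 2.41 and 4.06 against 55.99, 48.5 and 33.4 (log2 difference -3.52 ± 0.30 SE, adjusted p = 4.19e-05). Kif20a, a motor of late mitosis, was at 1.395, 2.78, 3.64 and 1.67 against 38.1, 38.2 and 59.6 (log2 difference -3.80 ± 0.32 SE, adjusted p = 4.19e-05). Levels were low but not 0 in each DN1eP library, and the groups were well apart. Mki67, the common proliferation marker and read after its values were seen, was at 1.86, 1.84, 1.58 and 0.936 against 20.5, 20.1 and 10.8 (log2 difference -2.79 ± 0.32 SE, adjusted p = 2.58e-04). In replication, Rrm2, a subunit of the enzyme that makes deoxynucleotides, was at 23.1, 27.2, 24.1 and 21.3 in DN1eP and at 363, 267 and 320.4 in stage 1 (log2 difference -3.67 ± 0.19 SE, adjusted p = 1.17e-06). Uhrf1, which keeps DNA methylation through replication, was at 4.57, 5.17, 5.15 and 7.33 against 69.9, 48.3 and 82.7 (log2 difference -3.36 ± 0.27 SE, adjusted p = 2.95e-05). Tk1, thymidine kinase, was at 9.04, 7.81, 3.14 and 14.1 against 105, 102 and 95.7 (log2 difference -3.56 ± 0.37 SE, adjusted p = 1.55e-04). The 4 DN1eP libraries were close together for Rrm2. The 2 cell cycle genes that did not pass were Cenpa at 4.81 to 35.3 against 30.9 to 56.7 (adjusted p = 0.133) and Kif23 at 1.13 to 13.1 against 9.99 to 19.8 (0.282). The 4 replication genes were Pcna at 164 to 308 against 302 to 442 (0.0546), Tyms at 6.91 to 58.1 against 45.3 to 63.9 (0.332), Cdt1 (0.289) and Rfc3 (0.268), and these 6 are named because they did not pass. For Cenpa, Kif23, Tyms and Rfc3 library 1 was more than 1 log2 unit below libraries 2 to 4. Leaving out any 1 library left 24 to 32 cell cycle and 21 to 26 replication genes lower.

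Among 13 tested genes for brakes of the cycle and D cyclins, 4 were higher and 2 lower. Over all genes 10.3% were higher and 14.2% lower, so the share that fell is near the background. Cdkn1a, which encodes the inhibitor p21, was at 1.57 FPKM in library 1, 9.06, 7.51 and 7.52 in libraries 2 to 4 and 0.0555, 0 and 0.581 in stage 1 (log2 difference 2.47 ± 0.47 SE, adjusted p = 0.00413). Btg2, an antiproliferative gene, was at 224, 320.2, 393 and 316 against 58.7, 71.8 and 64.2 (log2 difference 2.23 ± 0.21 SE, adjusted p = 6.81e-05), and Btg1 at 325 to 516 against 119 to 199.7 (adjusted p = 0.00101). Cdkn1b, which encodes p27 and was picked after its values were seen, was at 38.6 to 79.8 against 18.8 to 23.7 (0.00302). These 4 rose without overlap, and library 1 was the lowest DN1eP library for each. The 2 that fell were Cdk4, the kinase of D cyclins, at 64.5 to 105 against 180.1 to 279 (adjusted p = 9.59e-04), and the inhibitor Cdkn2c, also picked so, at 11.4 to 16.2 against 24.6 to 37.6 (0.00912). For library 1 alone 1 of the 13 was higher and 0 lower. Ccnd2, also read after its values were seen, at 84.03 to 159 against 88.2 to 152, did not pass (adjusted p = 0.787).

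**Figure D4:**
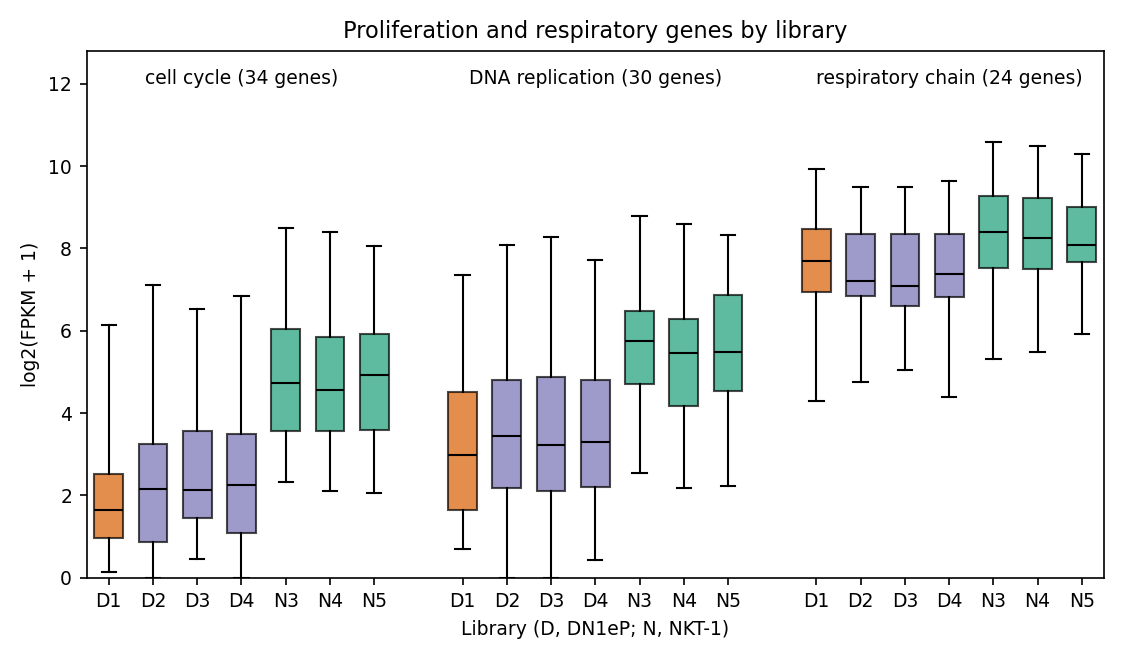
Distribution over genes of log2(FPKM + 1) in each library for 34 cell cycle, 30 DNA replication and 24 respiratory chain genes, with the box from the lower to the upper quartile, the line at the median and whiskers to the lowest and highest gene. In the cell cycle and replication panels all 4 DN1eP medians lie below the 3 stage 1 medians, and in the respiratory chain panel library 1 has the highest DN1eP median.

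Genes of energy metabolism and growth fell as well, by smaller amounts. Of 24 respiratory chain genes, 19 were lower and 0 higher, against 14.2% and 10.3% of all genes, with a median of -0.78. Atp5j, a subunit of ATP synthase, was at 448 FPKM in library 1, 227, 198 and 223 in libraries 2 to 4 and 800.5, 682 and 646 in stage 1 (log2 difference -1.45 ± 0.26 SE, adjusted p = 0.0031). Cox6c, of cytochrome oxidase, was at 825, 487, 536 and 532 and 1524, 1430 and 1245 (log2 difference -1.26 ± 0.19 SE, adjusted p = 0.00125). Ndufb8, of complex I, was at 182, 108, 75.4 and 148 and 342, 298 and 304 (log2 difference -1.36 ± 0.27 SE, adjusted p = 0.00496). Library 1 lay between libraries 2 to 4 and stage 1 for all 3. The count of 19 depended on the libraries and the scaling. It was 10 without NKT-1 library 3, 14 after upper-quartile scaling and 5 with all 5 stage 1 libraries. In glycolysis 8 of 17 tested genes were lower and 0 higher, with a median of -0.58. Pgam1 was at 33.8 in library 1, 10.1, 10.1 and 13.9 in libraries 2 to 4 and 81.6, 82.9 and 77.1 in stage 1 (log2 difference -2.36 ± 0.37 SE, adjusted p = 0.00146), and Pgk1 at 109 to 204 against 409 to 424 (adjusted p = 6.77e-04). Without NKT-1 library 5 the 8 became 5. Of 19 genes for ribosome biogenesis and Myc, 10 were lower and 1 higher, and 4 lower after upper-quartile scaling. Leaving out DN1eP library 3 or 4 gave 6 and 5 lower, and leaving out NKT-1 library 3, 4 or 5 gave 3, 3 and 4. Bop1, a factor of the large ribosomal subunit, was at 3.21 to 5.42 against 14.9 to 29.3 (adjusted p = 0.0012). The gene that rose was Odc1, which makes polyamines, at 24.3 in library 1, 53.8, 50.6 and 58.2 in libraries 2 to 4 and 14.03, 14.1 and 9.81 in stage 1 (log2 difference 1.75 ± 0.31 SE, adjusted p = 0.00302). Myc itself, read after its values were seen, was at 10.8 to 31.1 against 28.5 to 82.9 and did not pass (adjusted p = 0.0537). Cholesterol synthesis had 1 of 19 genes higher, the sterol sensor Insig1 at 18.8 in library 1, 53.6 to 67.00 in libraries 2 to 4 and 5.53 to 10.1 in stage 1 (0.00257), and 1 lower, Dhcr7, which catalyses the last step of the synthesis, at 16.5 to 24.9 against 28.9 to 41.4 (0.0389). Without library 1 the list had 4 higher and 2 lower. Without any 1 of the other 6 libraries the fall of Dhcr7 did not pass the test. With all 7 libraries the shares of this list were below those of all genes, 10.3% higher and 14.2% lower.

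The GIMAP family, GTPases that sustain resting lymphocytes, rose nearly throughout: 7 of 8 genes were higher and 0 lower, with a median of 1.40. For this list and the next ones, the shares over all genes were 10.3% higher and 14.2% lower. Gimap6 was at 940.1, 1021, 938 and 922 FPKM in DN1eP and at 174, 287 and 205 in stage 1 (log2 difference 2.13 ± 0.18 SE, adjusted p = 4.60e-05). Gimap7 was at 58.8, 67.5, 53.3 and 44.8 against 6.81, 9.68 and 7.89 (log2 difference 2.64 ± 0.24 SE, adjusted p = 5.59e-05). The DN1eP libraries, library 1 included, were close together for both. The exception, named for that, was Gimap1, at 12.01 to 22.4 against 8.25 to 12.1 (adjusted p = 0.0858). Of 27 tested immediate early and AP-1 genes, 11 were higher and 1 lower, but 7 were higher without NKT-1 library 3 or 5. Tnfaip3, a brake of NF-κB signals, was at 62.7, 119.8, 118 and 95.5 against 4.15, 21.1 and 15.4 (log2 difference 2.98 ± 0.47 SE, adjusted p = 0.00224). Fosl2, an AP-1 factor, was at 3.06 in library 1, 69.3, 68.2 and 49.4 in libraries 2 to 4 and 0.628, 1.07 and 0.634 in stage 1 (log2 difference 4.16 ± 1.02 SE, adjusted p = 0.0273). Fos, an immediate early gene read after its values were seen, was at 237, 96.8, 163 and 164 against 7.75, 101 and 98.5 and did not pass (adjusted p = 0.221). NKT-1 library 3 was low in Fos, and the other stage 1 libraries lay within the DN1eP range. Heat shock genes had 0 of 9 higher and 4 lower, or 2 lower without DN1eP library 4 or NKT-1 library 5, with Hsp90aa1 at 94.4 to 121 against 218 to 251 (adjusted p = 8.55e-04).

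Among 13 tested survival genes 3 were higher and 1 lower, beside 10.3% and 14.2% of all genes. Bcl2l11, which encodes the death protein Bim, rose beside its target Bcl2, at 7.46 FPKM in library 1, 28.7, 29.1 and 29.9 in libraries 2 to 4 and 0.906, 0.979 and 1.99 in stage 1 (log2 difference 3.29 ± 0.46 SE, adjusted p = 7.45e-04). Mcl1 was at 19.9 to 36.9 against 11.6 to 18.1 (adjusted p = 0.0461). The gene that fell was Bak1, named after its values were seen, at 0.285 to 1.41 against 1.76 to 6.01 (0.0225). Interferon response genes gave 4 of 24 higher and 1 lower, beside 10.3% and 14.2% of all genes, with 5 and 2 without library 1 and 0 lower without any 1 of the other 6 libraries or after upper-quartile scaling. The 4 were Irf1 and 3 genes for interferon-induced membrane proteins. Ifitm2 was at 334, 153, 174 and 130.5 in DN1eP and at 14.3, 3.89 and 3.404 in stage 1 (log2 difference 4.75 ± 0.47 SE, adjusted p = 2.37e-04). Ifitm1 was at 72.3, 41.5, 50.4 and 64.2 against 5.97, 0.405 and 0 (log2 difference 4.73 ± 0.59 SE, adjusted p = 7.62e-04), and Ifitm3 at 29.7 to 126 against 1.86 to 4.696 (adjusted p = 3.06e-04). These groups did not overlap, though the 3 genes are near copies and their reads may be shared. Isg15 (0.699) and Irf7 (0.689), which respond to type I interferon in most cells, did not pass by these adjusted p-values and were picked after their values were seen. Of 19 galectins, S100 proteins and annexins, 3 were higher and 2 lower, near the 10.3% and 14.2% of all genes. Without library 1 they were 3 and 6, and without DN1eP library 2, 3 or 4 or NKT-1 library 3 or 4 1 was lower. Anxa1 was at 126 in library 1, 29.04, 54.5 and 43.1 in libraries 2 to 4 and 8.47, 8.46 and 0.832 in stage 1 (log2 difference 3.34 ± 0.69 SE, adjusted p = 0.0114), and Lgals3, galectin-3, at 17.04 to 29.1 against 44.02 to 115 (adjusted p = 0.00366).

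The recombinase genes of thymocytes that rearrange their TCR genes were at or near 0 in both groups. Of 17 genes of those stages, 13 passed the filter on low values, of which 3 were higher and 2 lower in DN1eP. Over all genes 10.3% were higher and 14.2% lower, so the share that fell is near the background. Without library 1, 6 genes of the list were higher, and without any 1 of the stage 1 libraries 1 was. The recombinase gene Rag1 was at 0.625 FPKM in library 1 and listed at 0 in every other library, and Rag2 was at 1.14 in DN1eP library 2, at 0.483 in library 4 and listed at 0 elsewhere. Neither passed the filter. Dntt, which encodes the enzyme that adds bases at TCR junctions, was at 0.626 in library 1, 8.78, 12.6 and 11 in libraries 2 to 4 and 0.0761, 0 and 0.228 in stage 1 (log2 difference 2.70 ± 0.67 SE, adjusted p = 0.0181). Cd8a was at 2.75, 1.57, 4.42 and 2.31 against 0.243, 0.359 and 0.0489 (log2 difference 1.58 ± 0.34 SE, adjusted p = 0.00745). Dntt thus separated DN1eP libraries 2 to 4 from all others, and Cd8a was low throughout. Nrarp, a target of Notch and the other gene that rose, was at 1.16 to 1.95 against 0.0796 to 0.383 (adjusted p = 0.0251). Besides Cd4, the gene that fell was Aqp11, at 1.83 to 3.27 against 6.53 to 8.18 (0.013). Cd1d1, which presents the lipid antigen of NKT cells, was at 19.8 to 29.7 against 18.8 to 30.99 (0.998). Rag1, Rag2, Cd8a, Nrarp and Cd1d1 were picked after their values were seen.

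Markers of other cell types were read in each library, and their part in the differences above was not tested. Counts of markers, here and in the next paragraphs on cell types, stand beside 10.3% of all genes higher and 14.2% lower. A marker below 1 FPKM in stage 1 could pass the filter only through DN1eP, so it could be called higher but hardly lower. Of 14 tested markers of NK cells and innate lymphocytes of group 1, 13 were higher and 0 lower in DN1eP, most of them also in the lists above. Their summed level was 3596 FPKM in library 1, 2079 to 2383 in libraries 2 to 4 and 52.6 to 203 in stage 1. The 3 ranges did not meet. Itga2, which encodes the NK marker DX5, was below the filter, at 0.227 to 1.42 against 0.247 to 0.7199. Itga1, a marker of tissue-resident innate lymphocytes, was at 6.53, 3.46, 1.43 and 3.29 against 0.0164, 0.116 and 0 (log2 difference 2.05 ± 0.39 SE, adjusted p = 0.00386). Of 13 tested markers of innate lymphocytes of groups 2 and 3, 8 were higher and 2 lower, with sums of 121 FPKM in library 1, 197 to 210 in libraries 2 to 4 and 54.8 to 138 in stage 1. Calca, the gene of the neuropeptide CGRP, was at 5.14 in library 1, 61.98, 62.05 and 73.5 in libraries 2 to 4 and 3.03, 0.284 and 0 in stage 1 (log2 difference 4.41 ± 0.98 SE, adjusted p = 0.0198). It followed the same order as Ramp3, which encodes an accessory chain of receptors for this peptide family. Of 7 tested γδ T cell markers 3 were higher and 0 lower, with sums of 142 FPKM in library 1, 289 to 364 in libraries 2 to 4 and 84.1 to 94.6 in stage 1. Among them 5830411N06Rik, a scavenger receptor gene of IL-17 producing γδ T cells, was at 16.8 in library 1, 150.3, 193 and 213 in libraries 2 to 4 and 6.96, 11.1 and 8.74 in stage 1 (log2 difference 3.39 ± 0.90 SE, adjusted p = 0.0397). Blk, a kinase of the same cells and of B cells, was at 30.9, 57.3, 41.5 and 65.5 against 17.00, 16.7 and 15.7 (log2 difference 1.46 ± 0.27 SE, adjusted p = 0.00377). Constant and variable genes of the γδ TCR had no value. Itga2 and Itga1 were picked after their values were seen.

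Some markers of myeloid cells and basophils were present in DN1eP libraries and in NKT-1 library 3. Without the filter on low values the median of the myeloid and dendritic list was 0.574, against 1.39 with it. That of the mast cell and basophil list was 1.35, against 1.93. Of 24 myeloid and dendritic markers, 11 were tested, 4 were higher (2 without NKT-1 library 4) and 0 lower, and the sums were 581 FPKM in library 1, 247 to 333 in libraries 2 to 4 and 138 to 227 in stage 1. Mpo, the myeloperoxidase of granulocyte precursors, was at 271 FPKM in library 1, 28.8, 26.6 and 17.97 in libraries 2 to 4 and 1.78, 0 and 0 in stage 1 (log2 difference 5.01 ± 0.95 SE, adjusted p = 0.0108). Elane, which encodes neutrophil elastase and was picked after its values were seen, was at 87.1 in library 1 and at most 0.717 in the other DN1eP libraries (stage 1 0.529, 0 and 0). These granule genes were thus highest in library 1, while S100a9 was listed at 0 in all 7 libraries and Csf1r, the macrophage receptor, did not exceed 0.2796 in DN1eP. Of 19 mast cell and basophil markers, 10 were tested, 3 were higher and 0 lower, 7 were higher without library 1 and 5 without NKT-1 library 3. Their sums were 82.4 FPKM in library 1, 531 to 644 in libraries 2 to 4 and 3.90 to 133 in stage 1. Prss34, a basophil protease, was at 36.7 in library 1, 375, 334 and 363 in libraries 2 to 4 and 68.1, 0.141 and 0 in stage 1 (adjusted p = 0.09). Mcpt8, another, was at 22.3, 162, 135 and 155 and 49.2, 0 and 0 (0.107). Library 1 lay below NKT-1 library 3 for both proteases, and the other stage 1 libraries were at or near 0. Cpa3, a protease of mast cells and basophils, was at 12.7, 48.1, 34.4 and 31.2 against 2.54, 0 and 0 (log2 difference 4.28 ± 0.54 SE, adjusted p = 5.52e-04). The mast cell proteases Mcpt1, Mcpt2 and Mcpt4 were listed at 0 in all 7. Csf1r, Prss34 and Mcpt8 were picked after their values were seen.

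Of 24 progenitor genes, 7 were tested, 3 were higher and 0 lower (5 higher without library 1). Their sums were 772 FPKM in library 1, 234 to 293 in libraries 2 to 4 and 188 to 427 in stage 1, most of it from Ly6a. Without the filter on low values the list median was 0.164, against 1.16 with it. Such medians were -0.112 against 0.496 for B cell, -0.0626 against -0.769 for erythroid and 0.0652 against 0.0529 for stroma markers. Kit, the receptor of early thymic progenitors, was at 1.66, 4.402, 2.58 and 5.16 FPKM in DN1eP and at 0.201, 0 and 0.019 in stage 1 (log2 difference 1.98 ± 0.36 SE, adjusted p = 0.00311). Flt3 did not exceed 0.265 in DN1eP, and Tal1 and Erg were listed at 0 in all 7 libraries. The progenitor genes were thus low in both groups apart from Ly6a. Of 15 B cell markers, 4 were tested, 2 were higher (1 without any 1 of 6 of the 7 libraries, DN1eP library 4 excepted) and 0 lower, with sums of 24.6 FPKM in library 1, 30.2 to 52.5 in libraries 2 to 4 and 1.84 to 6.15 in stage 1. Cd79b, a chain of the B cell receptor, was at 20.8, 41.2, 46.02 and 27.9 against 0.763, 2.16 and 0 (log2 difference 4.24 ± 0.41 SE, adjusted p = 9.75e-05), whereas Pax5, which defines B cells, was listed at 0 in all 7. Of 16 erythroid markers, 3 were tested, 1 was higher and 1 lower, with sums of 42.0 FPKM in library 1, 60.1 to 62.0 in libraries 2 to 4 and 16.5 to 16.9 in stage 1. Car2, a carbonic anhydrase found in several cell types, was at 35.3, 53.4, 57.7 and 49.5 against 0.0299, 0 and 0 (log2 difference 5.61 ± 0.27 SE, adjusted p = 5.74e-07), whereas the globin genes Hbb-b1 and Hba-a1 were listed at 0 in DN1eP libraries 2 to 4 and Car1 and Slc4a1 in all 7. Cd79b and Car2 thus rose without the defining genes of their lists. Of 15 stroma and endothelium markers, 3 were tested and 1 was higher, Psmb11, the thymoproteasome subunit of cortical epithelium, at 1.27 in library 1, 10.2, 12.2 and 11.1 in libraries 2 to 4 and 0.265, 0.618 and 0.476 in stage 1 (log2 difference 2.46 ± 0.57 SE, adjusted p = 0.0116). It was not called without NKT-1 library 3 or for library 1 alone. The sums of the list were 11.2 FPKM in library 1, 46.6 to 61.3 in libraries 2 to 4 and 26 to 31.5 in stage 1, and Foxn1 and Krt5 were listed at 0 in all 7. Of 16 tested markers of CD4+CD8+ thymocytes and naive T cells, 3 were higher and 3 lower (9 and 3 without library 1, and 1 higher without any 1 of the other 6 libraries), with sums of 199 FPKM in library 1, 869 to 1034 in libraries 2 to 4 and 542 to 706 in stage 1. Kit, Flt3, Tal1, Erg, Pax5, the globin genes, Car1, Slc4a1, Foxn1 and Krt5 were picked after their values were seen.

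The lists differed in how far library 1 went with libraries 2 to 4. The median of the NK receptor list was 4.71 for library 1 alone and 4.06 without it. The median of the cell cycle list was -2.90 for library 1 alone and -2.50 without it. For immediate early genes the medians were 0.76 and 1.70. For markers of CD4+CD8+ thymocytes and naive T cells they were -0.57 and 0.83, and for mast cell and basophil markers 0.62 and 2.39. For the respiratory chain they were -0.64 and -0.87. Genes high only in library 1 could not pass the filter on low values and so do not enter these medians. Housekeeping genes, a check of the scale, had 1 of 13 higher and 3 lower, beside 10.3% and 14.2% of all genes. Ptprc, which encodes CD45, was the one that rose, at 332 to 440.1 against 101 to 204 (adjusted p = 0.0015). Hprt fell, at 113 to 285 against 318 to 409 (0.0157), as did Gusb and Coro1a, while Actb at 13839 to 16261 against 11092 to 19063 (0.692) and Eef1a1 at 5753 to 8373 against 7082 to 8546 (0.45), both read after their values were seen, did not pass.

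**Figure D5:**
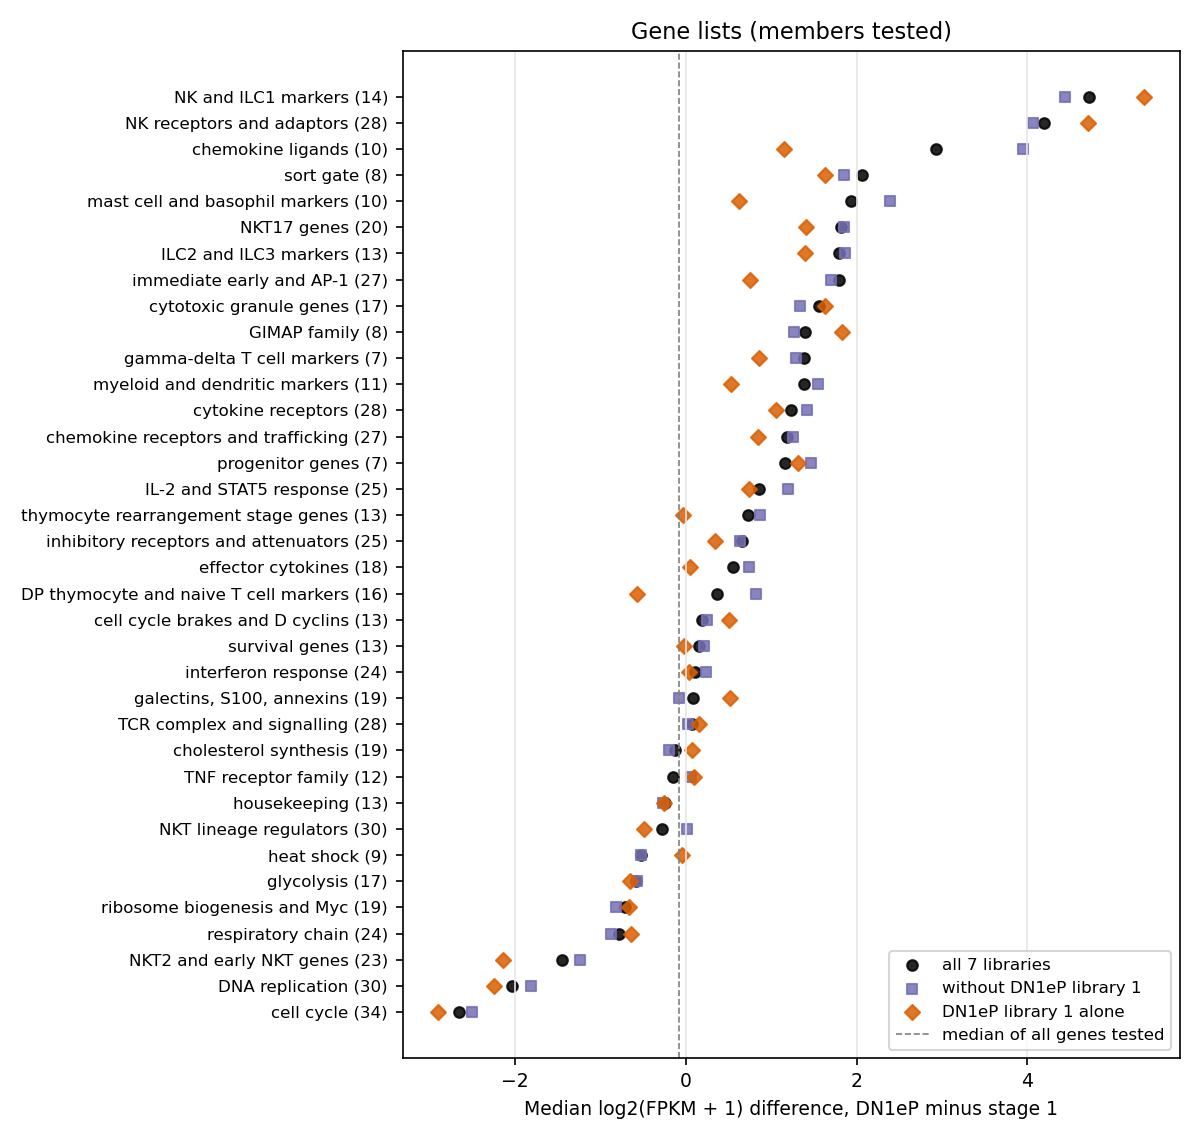
Median log2 difference (DN1eP minus stage 1) of each gene list, with black points for all 7 libraries, purple squares without DN1eP library 1 and orange diamonds for library 1 alone. The dashed line is the median of all genes tested, -0.08. NK receptors lie at 4.19 and cell cycle genes at -2.65, and for mast cell and basophil markers the orange diamond lies at 0.62 and the square at 2.39.

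Some of the largest differences lay outside the lists. Tsc22d3, a glucocorticoid-induced gene also called GILZ, was at 462, 401, 414 and 372 FPKM in DN1eP and at 1.88, 4.75 and 2.86 in stage 1 (log2 difference 6.69 ± 0.24 SE, adjusted p = 9.20e-08). Nmral1 was at 0.0509, 0.951, 0 and 2.15 against 31.5, 29.98 and 41.98 (log2 difference -4.46 ± 0.41 SE, adjusted p = 6.81e-05). Pbk, a mitotic kinase, was at 4.63, 1.26, 7.61 and 1.78 against 71.7, 52.1 and 62.4 (log2 difference -3.90 ± 0.43 SE, adjusted p = 2.20e-04), and Cdkn3, a phosphatase of cyclin-dependent kinases, at 3.08, 4.799, 0 and 0.902 against 45.8, 42.5 and 21.99 (log2 difference -3.80 ± 0.57 SE, adjusted p = 0.00147). All 4 DN1eP libraries, library 1 included, stood far from stage 1 for these genes. Nme4, a mitochondrial nucleoside diphosphate kinase, was at 0.779 in DN1eP library 4 and listed at 0 in the other 3, against 15.9, 15 and 17.5 in stage 1 (log2 difference -3.89 ± 0.32 SE, adjusted p = 4.06e-05). The microRNA gene Mir1949 was listed at 0 in all 4 DN1eP libraries and was at 183, 184 and 182 in stage 1, and the small nucleolar RNA gene Snora7a was listed at 0 against 26.8, 63.1 and 17.8. Their adjusted p-values were 4.04e-08 and 2.95e-05. Of 24 microRNA genes tested 0 were higher and 1 lower, and of 47 small nucleolar RNA genes 0 were higher and 2 lower. The labels name 2 library kits without saying which library used which, so the part of the kit in these short genes was not tested.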

How the data were processed

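RNA was extracted from cells enriched with magnetic beads and sorted, and libraries were made with either of 2 kits, per the labels' protocols, which do not tie a kit to a library. The deposited FPKM were made by the authors with TopHat2 2.0.6 and Cufflinks 2.1.1 on mm9, per the submitters' processing notes. FPKM hold no counts, so depth per library is not known, and the deposited 95% intervals stand for precision. Many FPKM of DN1eP library 1 and of stage 1 lay outside these intervals, so the intervals may not be on the scale of the FPKM there. The files came with 3 gene tables, 1 shared by DN1eP library 1 and stage 1. Of 23267 symbols in any of the 26 files of the series, 86 were missing from a file. Another 13 had a failed or over-limit estimate in a file, and the remaining 23168 were kept.

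FPKM were summed per symbol and tested as log2(FPKM + 1) with limma 3.58.1 (trend and robust, R 4.3.3), for genes of at least 1 FPKM in 3 of the 7 libraries, with Benjamini-Hochberg adjustment at 0.05 over 10168 genes. The test was tried on simulated data with 200 changed genes, and called 4 unchanged genes. Genes named by rule were all tested genes of the sort gate and regulators, up to 4 called genes per other list with the largest differences, no overlap and a mean of at least 5 FPKM in the higher group, and the 10 largest rises and falls with at least 10 FPKM, of which a part is printed. The members and the 39 lists were chosen with earlier results of these data known. Library 1 alone and genes of equal interval were alternatives chosen after seeing the data. Promoters are from RefSeq (GRCm38.p6), searched on both strands. Those on chromosome 18, which holds Kif20a, were left out of the search. Some genes of the lists are counted but not reported here by name.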

Additional observations from a re-analysis of the deposited data

Results flagged for a closer look

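Over the 4 DN1eP libraries, the named genes were searched for a library that stood far from the other 3 on the log2(FPKM + 1) scale, by Dixon's 95% critical value for 4 values. Of 151 named genes searched, 26 had such a library. For normal values in genes not chosen from the data, chance gives about 1 in 20. The named genes were chosen in part from these values and come from the same libraries, so the 26 cannot be judged by that rate. Library 1 was the one that stood apart for 23 of the 26, as the lowest for 15 and the highest for 8, and libraries 2, 3 and 4 for 1 gene each. The 3 stage 1 libraries were too few to search.

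Among regulators, library 1 was lowest for Id3 at 6.698 FPKM (the others 36.46 to 40.44), Tcf7 at 73.77 FPKM (the others 244.1 to 308.8) and Myb at 1.651 FPKM (the others 18.67 to 25.89). It was the lowest for the chemokine and adaptor genes Ccl4 at 46.68 FPKM (the others 257.8 to 317.4), Ccl5 at 5221 FPKM (the others 8562 to 9317) and Tyrobp at 114.8 FPKM (the others 192.1 to 208.7). It was also lowest for Ramp3 at 7.040 FPKM (the others 259.1 to 292.6), Calca at 5.138 FPKM (the others 61.98 to 73.54), 5830411N06Rik at 16.81 FPKM (the others 150.3 to 213.3) and Dntt at 0.6264 FPKM (the others 8.779 to 12.58). The remaining genes for which it was lowest were Fosl2 at 3.055 FPKM (the others 49.43 to 69.31), Cdkn1a at 1.570 FPKM (the others 7.507 to 9.061), Bcl2l11 at 7.457 FPKM (the others 28.69 to 29.94), Odc1 at 24.28 FPKM (the others 50.57 to 58.16) and Psmb11 at 1.274 FPKM (the others 10.17 to 12.18). Library 1 was the highest for the NK receptor and granule genes Klrc1 at 432.8 FPKM (the others 294.1 to 313.9), Klre1 at 282.5 FPKM (the others 114.8 to 122.6), Gzma at 954.1 FPKM (the others 453.7 to 514.1) and Nkg7 at 5382 FPKM (the others 3243 to 3521). It was the highest too for Ifng at 136.4 FPKM (the others 72.06 to 78.95), Id2 at 4363 FPKM (the others 1282 to 1434), Atp5j at 447.7 FPKM (the others 198.2 to 226.7) and Mpo at 270.9 FPKM (the others 17.97 to 28.76).

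In the other libraries, Cish was at 49.09 in DN1eP library 3, with the others at 29.76 to 31.74. Il13 was at 1.817 in library 2 and Nme4 at 0.7790 in library 4, and both were listed at 0 in the other 3.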

How the results depend on the processing

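Of 10168 genes, 2491 were called, 1050 higher and 1441 lower in DN1eP. With array weights 4112 were called (1903 higher, 2209 lower), and with all 26 libraries and a term for library set 4544 (2253 and 2291). DN1eP library 1 alone gave 883 (327 and 556). Without the filter on low values 648 were higher. Leaving out 1 library at a time gave 1043 to 3854 calls, 424 to 1896 higher and 619 to 1958 lower, with the fewest without NKT-1 library 3 and the most without DN1eP library 1. The other settings (pseudocount, stricter filter, scalings, highest value per symbol, the set of libraries in the fit, no trend, genes of equal interval) kept the total within 1.5 times. Of 153 named genes 133 were called, 71 of them under every one of the 21 settings that tested them, and 0 changed direction. Apart from the fit of library 1 alone, the most were lost without NKT-1 library 3 (24). Recovery was 14% for simulated 2-fold and 70% for 4-fold changes, with 200 changed genes of 10168. Far more genes were called in the data, 2491, so the adjusted threshold was less strict there than in the simulation. The simulated recovery thus does not tell how many small differences were missed in the data.

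With the replicate number as a block 2933 genes were called (1399 higher, 1534 lower), of which 1978 were also called without it. The samples that share a number did not deviate together (r = 0.036 for number 3 and -0.048 for number 4), so the numbers were not taken as a pairing.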
